A study of Mus musculus with 18 samples.

Results

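The liver response to a Western-style diet was compared between the mice numbered 1 to 3 and those numbered 4 to 6 in each diet group, to see which genes responded differently in the 2 sets. The measure was the interaction on the log2 scale. It is the mean of both Western-fed groups minus control in replicates 4 to 6, less the same difference in replicates 1 to 3. A negative value thus means that the effect of Western feeding was lower in replicates 4 to 6. All 18 arrays of the study's 18 entered, each with liver RNA of 1 mouse. Control replicates 4 and 5 differed by far less than any other pair (SD of the log2 difference 0.0474 over 2673 bright probe sets, against 0.161 for the next closest of 153 pairs). They were averaged and counted as 1 sample, which left 17 samples.

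The mice were male C57BL/6J, obtained at 5 weeks of age and then fed for 20 weeks. The control group received AIN93G, a purified rodent diet (3 samples in replicates 1 to 3 and 2 in replicates 4 to 6). The Western group received a diet with 39.9% of its energy from fat and 34% from sucrose (3 and 3 samples). This diet contained 20% butter, 1% soy oil and 0.15% cholesterol. The last group received that Western-style diet with 0.05% quercetin, a plant flavonol (3 and 3 samples). Mice were housed 3 to a cage, but the labels do not say which mice shared a cage, at what hour each was killed, or what the replicate numbers stand for. The values are log2(signal + 16) after quantile normalization, so a fold is a ratio of signal + 16 and understates the change of dim genes. Hepatocyte markers, of which 12 of 13 were on the array, summed to between 60210 and 66633 signal units in every sample.

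Western-style diets load the liver with fat and cholesterol. They are known to raise genes of lipid droplet coats and scar tissue and to lower genes of cholesterol synthesis. Liver genes also follow the circadian clock, a feedback loop in which CLOCK and its partner, encoded by Arntl, activate genes through E-boxes. PER and CRY proteins repress that activity, NR1D1 and NR1D2 repress Arntl while RORA activates it, and DBP, TEF and HLF activate genes through D-boxes, where NFIL3 represses. Many rhythmic liver genes follow feeding time and diet as well as the clock.

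Some clock genes were among those with the largest interactions, and the promoters of 4 clock genes are shown. All 4 hold a motif marked here, and they are not the 4 clock genes with the largest interactions. Each promoter is the 250 bases before the RefSeq start on GRCm38.p6, printed in the direction of the gene. Capitals mark the E-box CACGTG, or in Per3 the D-box TTATGTAA, searched on both strands. Ciart lies on the minus strand at chr3:95882229-95882478, Cry1 on the minus strand at chr10:85185055-85185304, Tef on the plus strand at chr15:81802423-81802672 (the first of 2 starts in the table) and Per3 on the minus strand at chr4:151044666-151044915.
Ciart: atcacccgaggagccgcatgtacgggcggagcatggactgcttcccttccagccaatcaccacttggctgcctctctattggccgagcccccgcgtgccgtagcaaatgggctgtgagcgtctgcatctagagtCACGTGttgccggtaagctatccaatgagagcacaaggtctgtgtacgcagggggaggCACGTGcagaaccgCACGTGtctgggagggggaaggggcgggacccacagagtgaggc
Cry1: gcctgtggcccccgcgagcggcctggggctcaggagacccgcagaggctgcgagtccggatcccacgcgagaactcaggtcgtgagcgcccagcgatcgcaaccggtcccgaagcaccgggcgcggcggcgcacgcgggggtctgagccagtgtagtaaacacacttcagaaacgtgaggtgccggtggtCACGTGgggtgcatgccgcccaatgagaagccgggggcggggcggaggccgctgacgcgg
Tef: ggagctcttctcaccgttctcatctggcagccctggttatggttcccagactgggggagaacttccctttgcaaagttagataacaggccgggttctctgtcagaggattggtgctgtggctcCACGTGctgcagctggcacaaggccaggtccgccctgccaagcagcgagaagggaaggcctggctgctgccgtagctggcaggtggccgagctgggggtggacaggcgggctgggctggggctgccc
Per3: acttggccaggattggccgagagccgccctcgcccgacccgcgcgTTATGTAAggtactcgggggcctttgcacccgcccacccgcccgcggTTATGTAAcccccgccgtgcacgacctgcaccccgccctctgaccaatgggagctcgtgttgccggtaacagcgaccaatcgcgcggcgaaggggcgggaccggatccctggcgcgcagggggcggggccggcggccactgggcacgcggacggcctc

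The E-box begins 116, 58 and 44 bases before the start of Ciart, 60 before that of Cry1 and 127 before that of Tef. The D-box begins 205 and 158 bases before the start of Per3. Promoters were listed for 15 of the 17 clock genes tested. Of these, 5 held the E-box (Bhlhe41, Ciart, Cry1, Per1 and Tef) and 1 held the D-box. Over all 32851 promoters of the table, the shares were 6.02% and 0.819%. These shares count single promoters, while a clock gene counted if any of its listed starts held the motif. A match describes these letters only. Clock genes with and without the E-box had interactions of both signs, and Per3, the 1 with the D-box, had −0.79.

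The effect of Western feeding differed between the replicate sets in 2 of 13645 genes, Tff3 and Fam102a, both with a lower effect in replicates 4 to 6 (0.0147%; limma, adjusted p under 0.05). No gene passed with a higher effect (0%). An unadjusted p under 0.05 was reached by 1050 genes (7.7%), where 682.25 would be reached without any difference. Of these, 531 were positive (3.89%) and 519 negative (3.8%). The median 95% interval reached 0.41 to either side of the estimate on the log2 scale, before any adjustment for the number of genes. The estimates had an SD of 0.264 over genes, and of 62 genes with an estimate of at least 1 in either direction Tff3 alone passed. Estimates of that size thus mostly did not pass, and a gene that did not pass is not shown to respond equally in the 2 sets.

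Tff3, a secreted trefoil peptide of mucus-making epithelia, was high in the control mice of replicates 4 to 6 alone. Its log2 level was 5.60, 5.72 and 5.62 in control replicates 1 to 3, and 7.55 and 7.09 in replicates 4 to 6. In the Western group it was 6.06, 5.63 and 5.73, then 5.58, 5.15 and 5.31. With quercetin it was 5.48, 5.96 and 6.17, then 5.59, 5.74 and 5.29. The 2 control samples of replicates 4 to 6 thus lay above all 15 others, which overlapped. Western feeding left Tff3 at 0.19 in replicates 1 to 3 (limma, adjusted p = 0.538) and lowered it by 3.67-fold in replicates 4 to 6 (log2 −1.87, adjusted p = 0.000158). The interaction was −2.06 ± 0.25 (SE; limma, adjusted p = 0.00668). It was −2.13 with the Western group alone and −2.00 with the quercetin group alone, 2 values that share the same controls. Tff3 passed in 30 of 32 other settings. It did not pass without the averaged control sample 4-5 (−1.83, adjusted p = 0.157) or without the Western group fed no quercetin (−2.00, adjusted p = 0.085). Summed markers of bile duct cells, an epithelium of the liver, ran from 164 to 261 in control replicates 1 to 3 and from 143 to 199 in replicates 4 to 6. These ranges overlapped, and the part of such cells in the Tff3 values was not tested. In bulk tissue, fewer cells of a type and less RNA per cell cannot be told apart.

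Fam102a, an estrogen-induced gene, was low in the control mice of replicates 1 to 3 alone. Its levels there were 6.70, 6.83 and 6.88, against 8.14 and 8.11 in control replicates 4 to 6. In the Western group the levels were 7.93, 8.05 and 7.87, then 8.68, 8.50 and 8.58. With quercetin the levels were 7.91, 7.92 and 8.06, then 8.19, 8.0 and 8.30. Every Western-fed sample lay above the controls of replicates 1 to 3. Western feeding raised Fam102a 2.22-fold in replicates 1 to 3 (log2 1.15, adjusted p = 3.96e-06), while the value in replicates 4 to 6 was 0.25 (adjusted p = 0.198). Its interaction was −0.90 ± 0.13 (SE; adjusted p = 0.0356), but it passed in only 9 of 32 other settings. A second probe set for the gene gave −0.39 (unadjusted p = 0.124), and the one used may also read related transcripts.

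**Figure D1:**
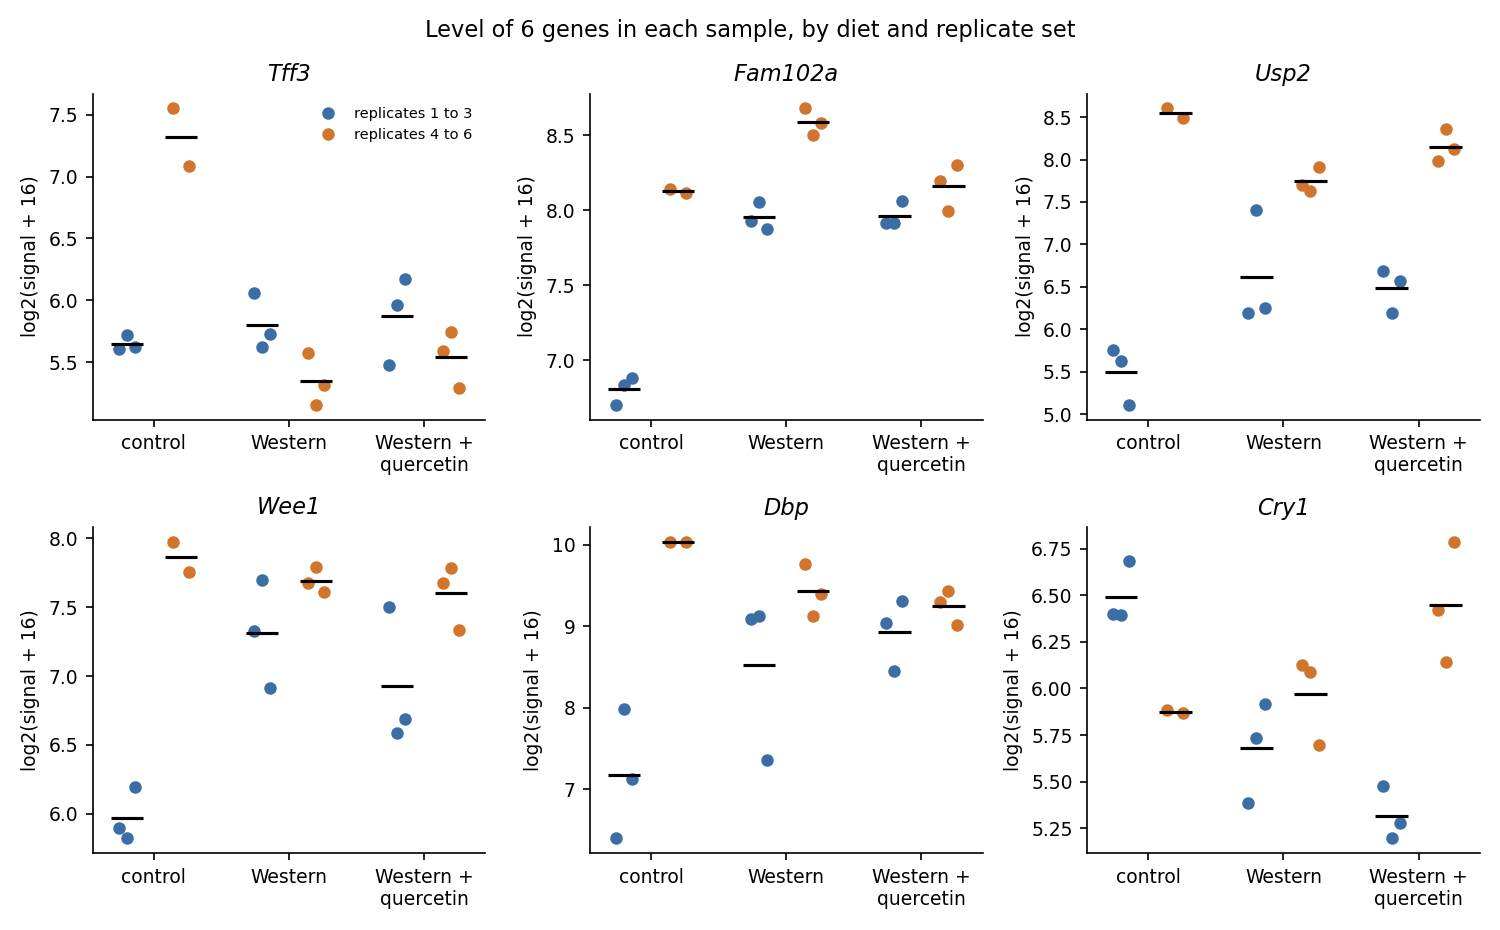
Log2(signal + 16) of 6 genes in each of 17 samples, by diet, with replicates 1 to 3 in blue and replicates 4 to 6 in orange; lines are means. In all 6 genes the control samples of the 2 sets lie apart, and in the Western-fed groups the sets lie closer together, except in Cry1 with quercetin.

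Counted one set at a time, Western feeding changed 1002 genes in replicates 1 to 3 (7.34%; 592 rose and 410 fell) and 295 in replicates 4 to 6 (2.16%; 181 rose and 114 fell). These counts do not measure a difference between the sets. Replicates 4 to 6 had 1 control sample fewer, and the median SE was 0.144 against 0.125. Their order turned with the processing, to 1809 and 2365 on the values as deposited (1705 and 2330 of them higher) and to 59 and 109 with the actin 3'/5' ratio as a covariate. Without control 6, 18 genes passed in replicates 4 to 6, and leaving out 1 control took the count in replicates 1 to 3 to between 434 and 485.

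The direction of the diet effect was shared by most genes called in either set, which have no sample in common. Of the 1002 genes, 906 (90.4%) had the same sign in replicates 4 to 6. Of the 295 genes, 276 (93.6%) had the same sign in replicates 1 to 3. Over all 13645 genes, 65.3% did. Both sets called 174 genes, which is 17.4% of the first list and 59% of the second. Of the 174, 0 passed for the interaction in limma, as 0.0147% of all genes did. An unadjusted p under 0.05 was reached by 9 of them (5.17%, against 7.7% of all genes). Of 828 genes called in replicates 1 to 3 only, Fam102a alone passed for the interaction. Of 121 called in replicates 4 to 6 only, Tff3 alone did. Genes called in both sets, or in 1 only, were chosen by the same effects whose difference is the interaction. Their counts for the interaction thus only describe them. Across genes, which are not independent, the effects in the 2 sets had r = 0.579.

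**Figure D2:**
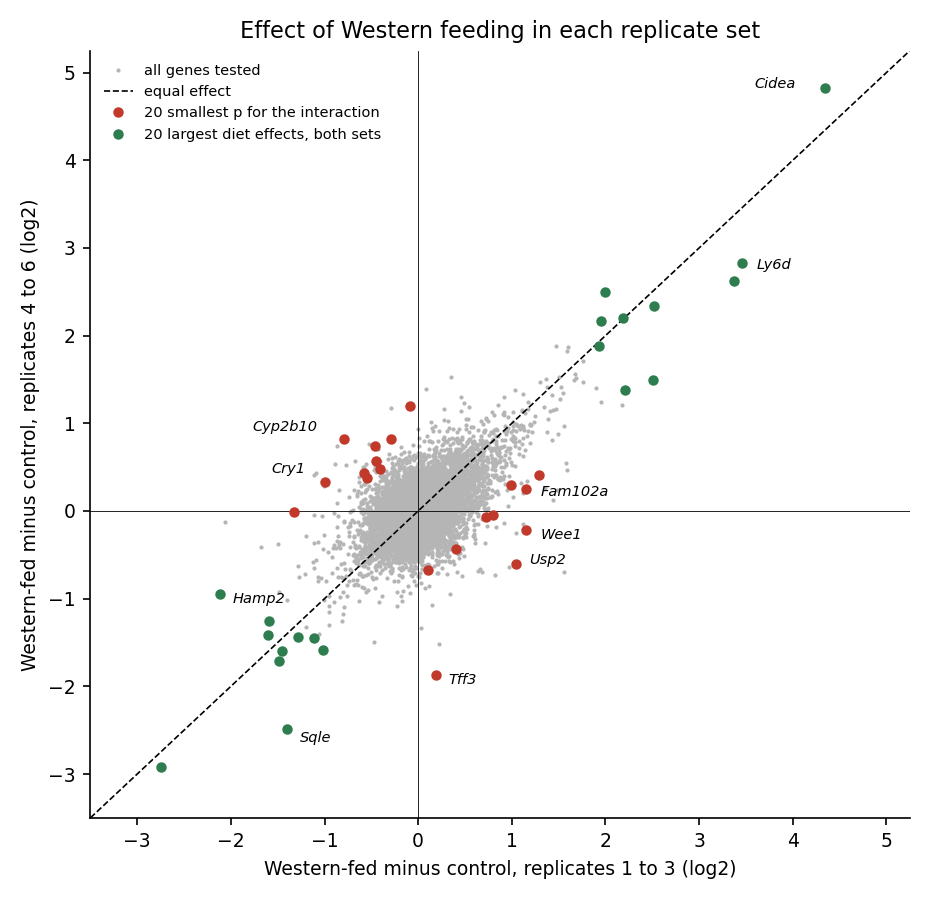
Western-fed minus control (log2) in replicates 1 to 3 against replicates 4 to 6, 1 point per gene for 13645 genes, with the dashed line at equal effects. Green marks the 20 genes chosen for the largest mean effect and red the 20 chosen for the smallest p of the interaction, so their places near and off the line follow from the choice; Tff3 is at 0.19 and −1.87.

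The interaction equals the difference between the sets in Western-fed mice minus that in control mice. Within the control diet 289 genes differed between replicates 4 to 6 and 1 to 3 (2.12%; 158 higher and 131 lower in replicates 4 to 6). Within the Western-fed groups 242 did (1.77%; 142 higher and 100 lower). The control difference was the larger of the 2 in size for 62.9% of all genes, and it rests on 5 samples against 12. Without control 6 the control count was 40, without control 4-5 it was 128, and without western 3 the Western-fed count was 89.

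Of the 20 genes with the smallest p for the interaction, 10 in each direction, 18 did not pass (adjusted p between 0.160 and 0.225). The control difference was the larger in 18 of the 20. The control sets did not overlap in any of the 20, as in 31.8% of all genes. The Western-fed sets did not overlap in 1 of the 20, Usp2, as in 2.37% of all genes. Both Western-fed groups gave the same sign in all 20. Since the genes were chosen by this contrast, these counts only describe them.

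Among the 10 positive genes were Cry1, a repressor of the clock, Zbtb16, a zinc finger transcription factor, Cyp2b10, a drug-metabolizing cytochrome P450, and Qtrt1, which puts queuine into transfer RNAs. Zbtb16 was at 7.77, 7.45 and 6.97 in control replicates 1 to 3, and at 6.93 and 6.62 in replicates 4 to 6. Mice of the Western group had 6.45, 6.62 and 6.37, then 6.42, 6.14 and 6.15. With quercetin the levels were 5.90, 5.79 and 5.26, then 7.17, 7.36 and 7.38. Its interaction was 1.32, with 0.37 for the Western group alone and 2.27 for the quercetin group alone. Its other probe sets gave 1.42 and 0.24. Western feeding lowered Zbtb16 2.52-fold in replicates 1 to 3 (log2 −1.33, adjusted p = 0.000439), and the value in replicates 4 to 6 was −0.01 (adjusted p = 0.986).

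Cyp2b10 was at 5.72, 5.75 and 5.78 in control replicates 1 to 3, and at 5.10 and 4.37 in replicates 4 to 6. Western-diet levels were 4.94, 4.87 and 5.35, then 4.98, 4.83 and 4.92. With quercetin the levels were 5.11, 5.18 and 4.32, then 6.57, 5.89 and 6.09, so the quercetin sets did not overlap while the Western sets did. The interaction of Cyp2b10 was 1.61 ± 0.31 (SE), with 0.88 for the Western group alone and 2.33 for the quercetin group alone, and its other probe sets gave 1.12 and 0.71. The probe set used for Cyp2b10 and the one giving 1.12 may also read related transcripts. The one giving 0.71 had an unadjusted p of 0.060 in limma. Cyp2b9 and Cyp2b13, related genes of the same subfamily, had interactions of 1.94 ± 0.82 (SE; unadjusted p = 0.031) and 1.43 ± 0.40 (SE; unadjusted p = 0.0028). Qtrt1 had 1.28 and similar values with either Western-fed group, 1.31 and 1.26. The other positive genes were Utp14b (0.92), Acnat2, an acyltransferase of peroxisomes (1.11), Rbm20, a splicing regulator (0.89), Rnf112 (1.20), the homeobox gene Evx1 (1.00) and Fbln1, a matrix glycoprotein (1.02, but −0.11 and −0.25 on its other probe sets). Evx1 was dim, with a mean log2 level of 4.60, just above the filter on dim genes at 4.56. Its interaction ran from 0.35 to 2.68 over 30 other settings.

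The quercetin group alone gave 8 genes that passed for the interaction (0.0586%; 3 positive, 0.022%, and 5 negative, 0.0366%). They were Zbtb16, Cry1 and Cyp2b10, and Fam102a, Tff3, Rnf113a2 (−1.08), Synj2 (−0.96) and Themis (−1.25). The Western group alone gave 1, Tff3 (0.00733%). Refitted without the Western arrays of no quercetin, 0 genes passed in limma (1135 at an unadjusted p under 0.05), so all 8 calls rest on the fit to all samples. Refitted without the quercetin arrays, 2 passed. Whether the 2 diets differ in this was not tested here, and both values rest on the same 5 control samples.

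The 10 negative genes held Usp2 and Wee1, a deubiquitinase and a cell cycle kinase that are both known as rhythmic liver genes. Usp2 was at 5.76, 5.63 and 5.11 in control replicates 1 to 3, and at 8.60 and 8.49 in replicates 4 to 6. The Western samples had 6.19, 7.40 and 6.25, then 7.70, 7.63 and 7.91. With quercetin Usp2 was at 6.69, 6.19 and 6.56, then 7.98, 8.36 and 8.13. The sets did not overlap in any diet, with a difference of 8.29-fold in control (log2 3.05) and 2.64-fold in Western-fed mice (log2 1.40, adjusted p = 0.00209). The interaction was −1.65 ± 0.35 (SE; adjusted p = 0.225), and a second probe set gave −1.74.

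Wee1 was at 5.89, 5.82 and 6.19 in control replicates 1 to 3, and at 7.97 and 7.76 in replicates 4 to 6. In the Western group the levels were 7.33, 7.70 and 6.91, then 7.67, 7.79 and 7.61. With quercetin Wee1 was at 7.50, 6.59 and 6.69, then 7.68, 7.78 and 7.34. Only the control sets did not overlap. Western feeding raised Wee1 in replicates 1 to 3 (log2 1.15, adjusted p = 0.00324), and its value in replicates 4 to 6 was −0.22. Its interaction was −1.37 ± 0.30 (SE), and −1.10 on a second probe set. The others were Themis, a T cell signalling protein (−0.88), Snhg11, a noncoding RNA (−0.83), 4931408D14Rik (−0.84), Msc, a helix-loop-helix repressor (−0.79), Rnf113a2, which has a near-identical copy (−0.78), and Synj2, a lipid phosphatase (−0.69). Msc was dim, with a mean log2 level of 4.67 against the filter at 4.56, and its interaction ran from −2.39 to −0.26 over 30 other settings. Other probe sets gave −0.33 for Snhg11, from −0.50 to −0.08 for Themis and from −0.43 to 0.55 for Synj2. Themis differed between the control sets by 2.55-fold (log2 1.35), while summed T and NK cell markers ran from 130 to 177 in control replicates 1 to 3 and from 123 to 162 in replicates 4 to 6, and their part was not tested.

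The clock list held 17 tested genes, and Npas2 was too dim. None passed for the interaction. At an unadjusted p under 0.05 were 3 positive genes (3.89% of all genes) and 8 negative ones (3.8%). The median interaction was −0.35, against −0.003 over all genes, and it stayed negative in each of 30 other settings (−0.50 to −0.26). Between the control sets 7 clock genes were higher in replicates 4 to 6 (1.16% of all genes) and 2 lower (0.96%). Between the Western-fed sets 3 were higher (1.04% of all genes) and 0 lower (0.733% of all genes). The control difference was the larger in 14 of 17, as in 62.9% of all genes. In 16 of 17 the sign was the same in both, while 37.5% of all genes had opposite signs.

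Of the D-box factors, Dbp had the widest difference between the sets. Dbp was at 6.40, 7.99 and 7.13 in control replicates 1 to 3, and at 10.03 and 10.04 in replicates 4 to 6. In the Western group Dbp was at 9.09, 9.13 and 7.36, then 9.76, 9.13 and 9.40. With quercetin it was at 9.04, 8.45 and 9.32, then 9.30, 9.43 and 9.01. The control sets lay apart, and the Western-fed sets overlapped in both diets. The control difference of Dbp was 7.26-fold (log2 2.86, adjusted p = 0.00564), that in Western-fed mice was 0.61 (adjusted p = 0.332), and the interaction was −2.25 ± 0.56 (SE; unadjusted p = 0.0012, adjusted p = 0.315). A second Dbp probe set gave −2.30. Tef had −0.72, Hlf −0.35 and their competitor Nfil3 0.72. Hlf was higher in replicates 4 to 6 in control (log2 0.90) and in Western-fed mice (0.55), both past the test.

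Ciart, a repressor of the CLOCK complex with 3 E-boxes in the printed stretch, was at 4.23, 4.36 and 4.71 in control replicates 1 to 3, and at 7.30 and 7.19 in replicates 4 to 6. Mice of the Western group had 4.13, 4.47 and 5.14, then 5.50, 5.35 and 5.63. With quercetin Ciart was at 4.23, 4.68 and 5.30, then 6.46, 6.15 and 5.27. It was higher in replicates 4 to 6 on both kinds of diet, by 7.04-fold in control (log2 2.82, adjusted p = 0.00103) and by 2.10-fold in Western-fed mice (log2 1.07, adjusted p = 0.0224). The interaction was −1.74 ± 0.41 (SE; adjusted p = 0.264). Western feeding lowered Ciart in replicates 4 to 6 (log2 −1.52, adjusted p = 0.0232), and in replicates 1 to 3 its value was 0.23.

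Among the repressors, Per2 had an interaction of −0.81, Per3 of −0.79, Cry2 of −0.74, Bhlhe40 of −0.66, Bhlhe41 of −0.35 and Per1 of 0.06. Bhlhe40 had −0.29 without control 1, where its level was 8.26 against 9.33 and 9.42 in control 2 and 3. Bhlhe41 was dim, with a mean log2 level of 4.73 against the filter at 4.56. Probe sets of Per3 did not all give the same value, from −1.34 to 0.26, and a dimmer one of Per2 gave −0.18. Per2, Per3 and Cry2 were higher in control replicates 4 to 6 (log2 1.30, 1.15 and 1.01, each past the test), and their differences in Western-fed mice were 0.48, 0.35 and 0.28, none past it.

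Cry1 was the 1 clock gene of 17 whose set differences had opposite signs on the 2 kinds of diet (−0.61 in control, adjusted p = 0.121, and 0.71 in Western-fed mice, adjusted p = 0.0102). Its levels were 6.40, 6.39 and 6.68 in control replicates 1 to 3, and 5.88 and 5.87 in replicates 4 to 6. Western-diet levels were 5.39, 5.74 and 5.92, then 6.12, 6.09 and 5.70. With quercetin Cry1 was at 5.48, 5.20 and 5.28, then 6.42, 6.14 and 6.79. Western feeding lowered Cry1 1.99-fold in replicates 1 to 3 (log2 −0.99, adjusted p = 0.00163), and in replicates 4 to 6 its value was 0.33 (adjusted p = 0.326). The interaction was 1.32 ± 0.23 (SE; adjusted p = 0.160), with 0.90 for the Western group alone and 1.75 for the quercetin group alone.

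Of the activators, Clock had an interaction of 0.52 and Arntl of 0.60, with −0.06 on a dimmer probe set of Arntl. Clock was lower in control replicates 4 to 6 (log2 −0.82, adjusted p = 0.00354), and Arntl had −1.08 there (adjusted p = 0.0603). Of the nuclear receptors, Nr1d2 had an interaction of −0.49, Nr1d1 of −0.31 and Rora of 0.16. The Western-fed difference of Nr1d1 was −0.65 (adjusted p = 0.0505) and its control difference −0.34.

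**Figure D3:**
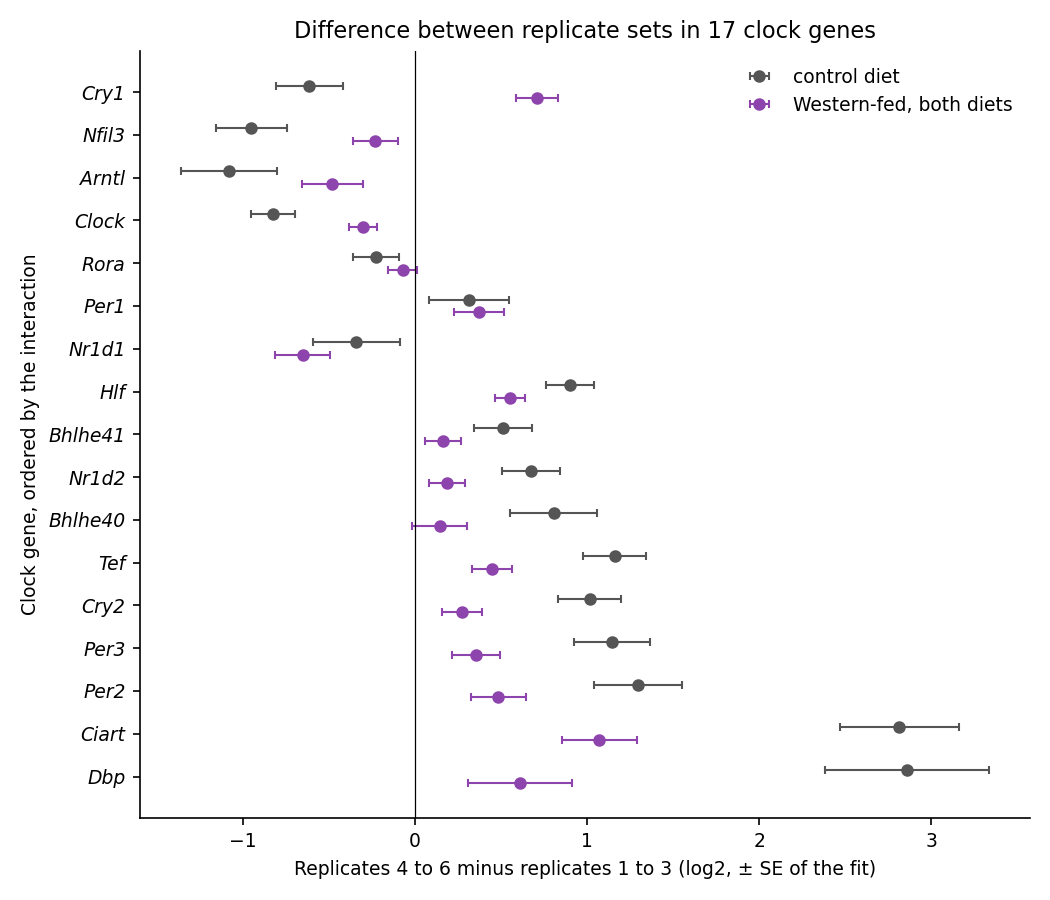
Replicates 4 to 6 minus 1 to 3 (log2, ± SE of the fit) for 17 clock genes, in control mice (grey) and in Western-fed mice (purple), ordered by the interaction. For 14 of 17 genes the control point lies farther from 0, and Cry1 lies on opposite sides of 0.

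Of 19 rhythmic and feeding-related output genes, 0 passed for the interaction, and the median was −0.14. At an unadjusted p under 0.05 were 3 positive (3.89% of all genes) and 5 negative (3.8%). In the control diet 8 were higher (1.16% of all genes) and 1 lower (0.96%) in replicates 4 to 6, and in the Western-fed groups 5 were higher (1.04%) and 1 lower (0.733%). Mt1 and Mt2, metal-binding metallothioneins with similar sequences, were higher in control replicates 4 to 6 (log2 2.13 and 2.05) and had interactions of −1.56 and −1.61, with −0.22 on a dimmer probe set of Mt1. Upp2, a uridine phosphorylase, showed the set difference on both kinds of diet. It was 3.28-fold higher in control replicates 4 to 6 (log2 1.71, adjusted p = 0.00836) and 3.13-fold higher in Western-fed ones (log2 1.65, adjusted p = 0.00154), and its interaction was −0.07. Alas1, the first enzyme of heme synthesis (log2 1.26 and 0.85), and St3gal5, a ganglioside enzyme (0.85 and 0.69), were also higher on both. Tars, a transfer RNA ligase, was lower on both (−1.22 and −0.61), with an interaction of 0.61.

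Cyp7a1, the rate-limiting enzyme of bile acid synthesis from cholesterol, was at 7.54, 7.06 and 7.44 in control replicates 1 to 3, and at 9.93 and 10.22 in replicates 4 to 6. The Western samples had 7.77, 8.66 and 8.30, then 9.94, 9.83 and 9.19. With quercetin Cyp7a1 was at 8.66, 8.28 and 9.10, then 10.59, 9.74 and 10.27. The sets lay apart in every diet. Western feeding raised Cyp7a1 2.18-fold in replicates 1 to 3 (log2 1.12, adjusted p = 0.0122), and its value in replicates 4 to 6 was −0.15. The interaction was −1.27 ± 0.37 (SE; adjusted p = 0.416), and −0.58 on a second probe set. Over 22 bile acid and sterol transport genes, the median was −0.02. At an unadjusted p under 0.05, 2 were positive (3.89% of all genes) and 1 negative (3.8%).

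Glucose and lipid genes had interactions of both signs, and 0 passed in limma. Of 17 glucose and insulin genes, 4 were positive and 1 negative at an unadjusted p under 0.05, where 3.89% and 3.8% of all genes were, as for the lists that follow. Igfbp1, an insulin-repressed secreted protein, had 1.52 (adjusted p = 0.359), and Pck1, an enzyme of glucose production, had 0.55. Gys2, the liver glycogen synthase, had −0.60 (adjusted p = 0.298). Of 20 genes of fatty acid synthesis, 3 were positive and 0 negative at an unadjusted p under 0.05, namely Fasn (0.82), Elovl6 (0.75, but −0.80 on a dimmer probe set) and their regulator Mlxipl (0.41). Elovl6 had 0.06 with the Western group alone and 1.44 with the quercetin group alone. For Fasn these values were 0.37 and 1.27, and Mlxipl had 0.31 with the Western group alone. Of 25 genes of fatty acid oxidation, 1 was positive and 2 negative, and Cpt1a, which moves fatty acids into mitochondria, had −0.46, but 0.21 and 0.40 on its other probe sets. Of 26 lipid droplet and fat storage genes, 4 were positive and 4 negative. Fitm2 and Pnpla2, a droplet assembly protein and a triglyceride lipase, had −0.51 and −0.41. Lpin1, a phosphatase of triglyceride synthesis, had 1.13, but −0.08 with the Western group alone and 2.34 with the quercetin group alone.

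Among stress and detoxification genes, Hmox1, which degrades heme, had −0.90, Gadd45a, a growth arrest gene, −1.05, Junb −0.92 and Hsp90aa1, a chaperone, 0.80. Western feeding raised Hmox1 (log2 0.96) and Gadd45a (0.92) in replicates 1 to 3, and their values in replicates 4 to 6 were 0.06 and −0.13. Hsp90aa1 rose in replicates 4 to 6 (log2 0.95) with 0.15 in replicates 1 to 3, and its other bright probe sets gave interactions of 0.25 and 0.30. Of 17 drug metabolism genes, 3 were positive at an unadjusted p under 0.05 (3.89% of all genes), and these were the 3 Cyp2b genes. The female-biased list of 9 tested genes also had 3, Cyp2b9, Cyp2b13 and Hao2, a peroxisomal oxidase (1.27), so the lists overlap. Of 17 proliferation genes, 5 were positive (3.89% of all genes) and 0 negative (3.8%), with a median of 0.27 that stayed positive in 30 other settings (0.14 to 0.44). Mcm6, a DNA helicase subunit, rose in replicates 4 to 6 (log2 1.23, adjusted p = 0.00665), with 0.49 in replicates 1 to 3 and an interaction of 0.74. Ccnb2, a mitotic cyclin, rose in replicates 4 to 6 (log2 0.96), with 0.18 in replicates 1 to 3 and an interaction of 0.78. Mcm7 had 0.44. Calls in one set and not the other are not shown to differ, since no interaction in these lists passed.

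Western feeding over both sets changed 1831 genes (13.4%). The 20 largest of these effects were chosen by the mean of both sets, which favours genes with 1 direction in both, so the counts that follow only describe them. Of the 10 largest increases 10 had the same direction in both sets, 10 passed in replicates 1 to 3 and 9 in replicates 4 to 6, the exception being Lpl, a lipase of blood triglycerides (log2 2.21 and 1.38). Of the 10 largest decreases 10 had the same direction, with 9 passing in replicates 1 to 3 and 7 in replicates 4 to 6. None of these 20 passed for the interaction in limma (smallest adjusted p 0.583 for the increases and 0.532 for the decreases), and 2 of each 10 had an unadjusted p under 0.05: Cidec and Cbr3, and Hamp2 and Sqle.

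Cidea, a lipid droplet fusion protein, was at 5.35, 5.39 and 6.26 in control replicates 1 to 3, and at 5.35 and 5.05 in replicates 4 to 6. In the Western group the levels were 10.12, 9.83 and 10.09, then 10.15, 10.46 and 10.41. With quercetin Cidea was at 9.83, 9.58 and 10.61, then 9.16, 10.08 and 9.89. All Western-fed samples lay far above all controls, by 20.3-fold in replicates 1 to 3 (log2 4.34) and 28.3-fold in replicates 4 to 6 (log2 4.82), and the interaction was 0.48 ± 0.38 (SE). Cidec, a protein of the same family, rose by 3.38 and 2.62, and Ly6d, a surface antigen, by 3.46 and 2.83. Gpnmb and Mmp12, genes of lipid-laden macrophages, rose by 2.52 and 2.33 and by 1.99 and 2.49. Lcn2, an acute phase protein, rose by 2.19 and 2.20.

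Sqle, an enzyme of cholesterol synthesis, was at 8.78, 8.19 and 7.12 in control replicates 1 to 3, and at 8.66 and 7.91 in replicates 4 to 6. Mice of the Western group had 7.12, 6.60 and 6.81, then 6.15, 5.79 and 5.26. With quercetin Sqle was at 6.37, 6.69 and 6.19, then 6.39, 5.98 and 5.19. The levels of control 3 and western 1 were equal to 2 decimals, and within replicates 4 to 6 the diets did not overlap. Western feeding lowered Sqle by 2.64-fold in replicates 1 to 3 (log2 −1.40) and by 5.62-fold in replicates 4 to 6 (log2 −2.49), with an interaction of −1.09 (unadjusted p = 0.0453, adjusted p = 0.642). Idi1 and Msmo1, of the same pathway, fell by 1.45 and 1.59 and by 1.12 and 1.45 on the log2 scale. Of 20 cholesterol genes, 12 fell in replicates 1 to 3 (3% of all genes) and 10 in replicates 4 to 6 (0.835% of all genes), with medians of −0.62 and −0.70. Hamp2, a hepcidin gene, fell in replicates 1 to 3 (log2 −2.11, adjusted p = 0.000968), and its value in replicates 4 to 6 was −0.95 (adjusted p = 0.144), with an interaction of 1.16 (adjusted p = 0.532).

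**Figure D4:**
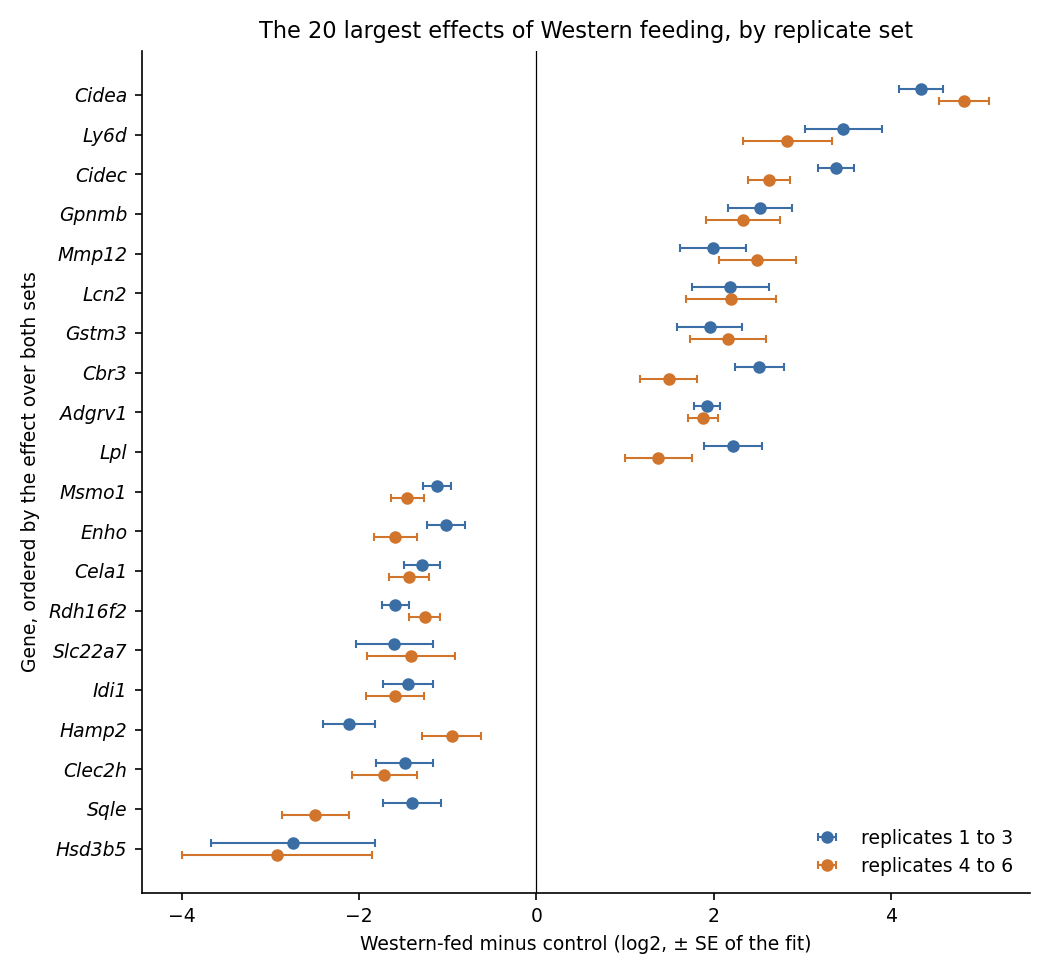
Western-fed minus control (log2, ± SE of the fit) in replicates 1 to 3 (blue) and 4 to 6 (orange) for the 10 largest increases and 10 largest decreases over both sets. The genes were chosen by the mean of both points, which lie on the same side of 0 in all 20, and the 2 points lie farthest apart for Hamp2 (−2.11 and −0.95) and Sqle (−1.40 and −2.49).

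Over all 35 gene lists, 0 members passed for the interaction in limma. Of their 518 tested genes, 69 (13.3%) had an unadjusted p under 0.05, against 7.7% of all genes. The lists were chosen with earlier results of these data known, so a higher share may follow from the choice. It cannot show that these lists are enriched, and the same limit holds for each single list set beside a share of all genes. Fibrosis and matrix genes rose in both sets, 14 of 21 in replicates 1 to 3 (4.34% of all genes) and 8 in replicates 4 to 6 (1.33% of all genes), with medians of 0.68 and 0.55. No fibrosis gene had an unadjusted p under 0.05 for the interaction. The same held for 25 macrophage and Kupffer cell markers. Of these, 11 rose in replicates 1 to 3 (4.34% of all genes) and 1 in replicates 4 to 6 (1.33%), with medians of 0.64 and 0.54. Summed macrophage markers ran from 6921 to 7578 in control replicates 1 to 3 and from 6256 to 7504 in replicates 4 to 6, and from 7850 to 21182 over all Western-fed samples. Summed neutrophil markers were 192 to 205 in control replicates 1 to 3 and 111 to 131 in replicates 4 to 6. These control sums did not overlap, and neither did the control sets in 31.8% of all genes. Of 7 neutrophil genes tested, the control sets did not overlap in 1, and 0 passed between them. In the Western-fed samples the neutrophil sums ran from 174 to 421 in replicates 1 to 3 and from 135 to 220 in replicates 4 to 6. The sums were not tested. Of 14 endothelial and 12 stellate cell and pericyte markers, 1 each was positive at an unadjusted p under 0.05 (3.89% of all genes). These were Tek (0.38) and Acta2 (0.38), respectively.

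Genes were read from their brightest probe set. Of 71 genes checked that had another probe set above the filter on dim genes, 29 had one with an interaction of the opposite sign, and 16 had all others within 1.5 times the value used.

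Some array measures moved with diet. The actin 3'/5' ratio, a measure of RNA integrity, ran from 0.63 to 0.77 (log2) on control arrays 1 to 3 and from 0.39 to 0.65 on Western-fed arrays 1 to 3. In replicates 4 to 6 it ran from 0.63 to 0.71 and from 0.50 to 0.68. With the actin ratio as a covariate the counts within the sets were the 59 and 109 given above. The Gapdh 3'/5' ratio overlapped between the diets. Its means (log2) in replicates 1 to 3 and 4 to 6 were −0.38 and −0.36 in control. They were −0.40 and −0.38 in the Western group and −0.39 and −0.40 with quercetin. The trimmed mean signal ran from 72.2 to 81.3 and from 80.7 to 98.8 in replicates 1 to 3, and from 67.2 to 80.6 and from 86.9 to 102.5 in replicates 4 to 6, so that in replicates 4 to 6 the diets did not overlap. None of the measures passed for the interaction. The trimmed mean signal had an interaction of 7.37 signal units (two-sided exact permutation p = 0.273, the set numbers permuted within each diet in 4000 arrangements). The actin ratio had an interaction of 0.11 on the log2 scale (exact permutation p = 0.165). Over 5 such measures the smallest adjusted p was 0.682.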

How the data were processed

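Liver RNA of 18 mice was measured on Affymetrix mouse arrays, 1 mouse per array per the labels. The deposited intensity values, 1 linear signal for each of 45101 probe sets, were used as deposited. Their derivation by the authors from the scans is not given in the sources used here. After 64 control probe sets were left out, the rest were taken as log2(value + 16) and quantile normalized over 18 arrays. Of 45037 probe sets, 34945 had 1 gene symbol, 932 several and 9160 none; the brightest probe set stood for a gene. Of 18193 genes, 4548 in the lowest 25% of mean level were left out (below 4.56), and 13645 were tested.

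limma 3.58.1 in R 4.3.3 fitted 1 mean for each diet and replicate set to 17 samples (lmFit, contrasts, eBayes; 11 residual degrees of freedom). All tests were two-sided, with Benjamini-Hochberg adjustment over all genes in each contrast and an adjusted p under 0.05 taken as passing. The script was tested on simulated data. The number of arrays limits the precision. The members, gene lists and tests were chosen with earlier results of these data known. Named genes are the 10 with the smallest unadjusted p for the interaction in each direction, the 10 largest increases and 10 largest decreases over both sets, and up to 3 genes of each list; clock and rhythmic genes beyond these were added after their values were seen. The lists held 627 symbols, of which 565 were matched on the array. Alternatives changed the scaling, pseudocount, filter, probe set choice, use of control 4 and 5, actin covariate, eBayes settings, replicate block and diet groups, and left out each sample. Promoters are from RefSeq (GRCm38.p6). Plots used matplotlib 3.10.9 (Python 3.11.15).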

Additional observations from a re-analysis of the deposited data

Results flagged for a closer look

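Tff3 and Fam102a stood out because the effect of Western feeding differed between replicates 4 to 6 and 1 to 3 in limma, by −2.06 and −0.90 on the log2 scale.

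In 12 of 288 tests, 1 sample stood apart from the others of its diet by Dixon's ratio of gap to range, and chance gives about 1 in 20. Western 3 was low for Dbp (7.36 against 9.09 to 9.76; ratio 0.718), for Nr1d2 (9.11 against 9.72 to 9.99; 0.694) and for Akr1d1, an enzyme of bile acid synthesis (8.17 against 8.73 to 8.95; 0.716), and high for Cyp2b10 (5.35 against 4.83 to 4.98; 0.709). Western 2 was low for Gpnmb (6.07 against 7.07 to 7.42; 0.741) and high for Hsp90aa1 (11.87 against 11.18 to 11.43; 0.638). Control 6 was low for Gstm3, a glutathione transferase (7.98 against 8.90 to 9.18; 0.768), and for Rora (7.74 against 8.09 to 8.16; 0.834). Control 3 was high for Cidea (6.26 against 5.05 to 5.39; 0.716), and control 1 was low for Junb (6.67 against 7.29 to 7.44; 0.804). With quercetin, sample 4 was high for Evx1 (4.83 against 4.15 to 4.37; 0.671) and sample 6 was high for Slc22a7, an organic anion transporter (8.45 against 6.58 to 7.21; 0.664).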

How the results depend on the processing

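The number of genes with a differing effect between the sets was 1 on the values as deposited, with array medians centred, with the mean of all probe sets, when probe sets with names in _x_at or _s_at were dropped, and with the replicate block. It was 8 with control 4 and 5 counted separately, 0 without the Western group fed no quercetin (1135 genes at an unadjusted p under 0.05) and 0 to 3 on leaving out 1 sample. The cause of these moves was not tested, except that fewer samples leave less precision. Counts within replicates 1 to 3 were 1809 as deposited (1705 higher), 59 with the actin ratio as covariate, 332 and 449 without the quercetin or the other Western group, and 434 to 1170 on leaving out 1 sample. Within replicates 4 to 6 they were 2365 as deposited (2330 higher), 469 with a pseudocount of 64, 965 with control 4 and 5 separate, 109 with the actin ratio, 18 without the Western group fed no quercetin, and 18 to 370 on leaving out 1 sample. The low ends were control 6 (18), western 4 (120), quercetin 5 (148), control 4-5 (157), western 5 (159) and quercetin 4 (169). With array medians centred, 231 of 276 calls in replicates 4 to 6 and 572 of 746 in replicates 1 to 3 were higher. The median of all genes moved by 0.18 and 0.27 (log2) in the 2 sets on the values as deposited. Differences between the sets in control passed in 134 genes as deposited, 156 with medians centred, 733 with control 4 and 5 separate, and 40 to 316 on leaving out 1 sample. In Western-fed mice they passed in 117 as deposited, 437 with a pseudocount of 64, 56 with the actin ratio, and 89 to 255 on leaving out 1 sample. With the replicate block the counts within the sets were 1033 and 227, and Fam102a did not pass for the interaction (−0.89, adjusted p = 0.0938). The numbers were not taken as pairs: same-numbered samples of different diets deviated together (correlation over 0.1) in 16 of 20 pairs with the set difference left in (−0.262 to 0.324) and in 8 of 20 with the set means removed (−0.364 to 0.261), and 12 of 17 samples correlated best with their own number. Of 2732 values of 91 named genes under the alternatives, 2545 kept their direction and side of the threshold or their size, 153 moved by more than the spread, 9 came to pass and 25 ceased to pass. Keeping only control 4 or only control 5, chosen after seeing the data, again gave 2 genes. The median 95% interval of the interaction, unadjusted, reached 0.41 (log2) to either side.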
